A study of Rattus norvegicus with 8 samples.

Results

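The genes described here are 47 that copy DNA or supply the nucleotides for it, chosen by name from the 32623 genes of the deposited table and each matched to 1 row by its symbol. They fall into 9 groups by role: origin licensing, helicase activation, the sliding clamp and its loader, the polymerases and primase, Okazaki fragment processing, single-strand DNA binding, deoxynucleotide supply, chromatin assembly with methylation copying, and fork protection. Their RNA was measured by RNA sequencing, after capture on oligo(dT) beads, in lung tissue of rats (Rattus norvegicus) from 2 groups of 4 libraries. The MCT group came from animals treated with monocrotaline, a pyrrolizidine alkaloid used to induce pulmonary hypertension (PH), and the other group was labelled control, with no vehicle named. Strain, sex, age, dose of monocrotaline and day of sampling are not given in the sources used here, and neither is whether the 4 libraries of a group are 4 animals. The p-values therefore measure the spread between libraries, which may be technical. Whole lung was sequenced, so more cells of a type and more RNA per cell cannot be told apart for any gene below. The stated purpose of the series was to find targets with large differences in this model.

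Before each S phase the cell loads the MCM helicase onto origins with the help of the origin recognition complex, Cdc6 and Cdt1, and geminin then blocks further loading. The helicase fires when Cdc45, the GINS complex and Mcm10 join it, after which primase and polymerase alpha start each strand, polymerases delta and epsilon extend it on the PCNA clamp, and ribonucleotide reductase, thymidylate synthase and thymidine kinase keep the deoxynucleotides coming. Many of these genes are transcribed late in G1 under the E2F factors, and in a resting tissue such as the adult lung most are kept low.

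Most of the 47 were higher in the MCT libraries. With edgeR's quasi-likelihood test, adjusted over all 16715 genes tested, 30 of the 47 (63.8%) were higher in MCT at an adjusted p under 0.05, against 11.0% of all genes tested. Only Cdc45 was lower, against 9.45% of all genes, and 16 were not called. By at least 1 on the log2 scale 18 of the 47 rose, against 3.7% of all genes. Every MCT library lay above every control library for 27 of the 47, against 13.3% of all genes. The median log2 fold change of the 47 was 0.77 (quartiles 0.37 and 1.24), beside 0.03 (quartiles -0.27 and 0.33) over all genes tested. The fold change was positive for 45 genes, the exceptions being Cdc45 and Gins2. Mcm7 and Pold1, close to 0, turned negative without MCT 3 or without MCT 4, and Pold1 and Rnaseh2a did so without control 4.

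**Figure D1:**
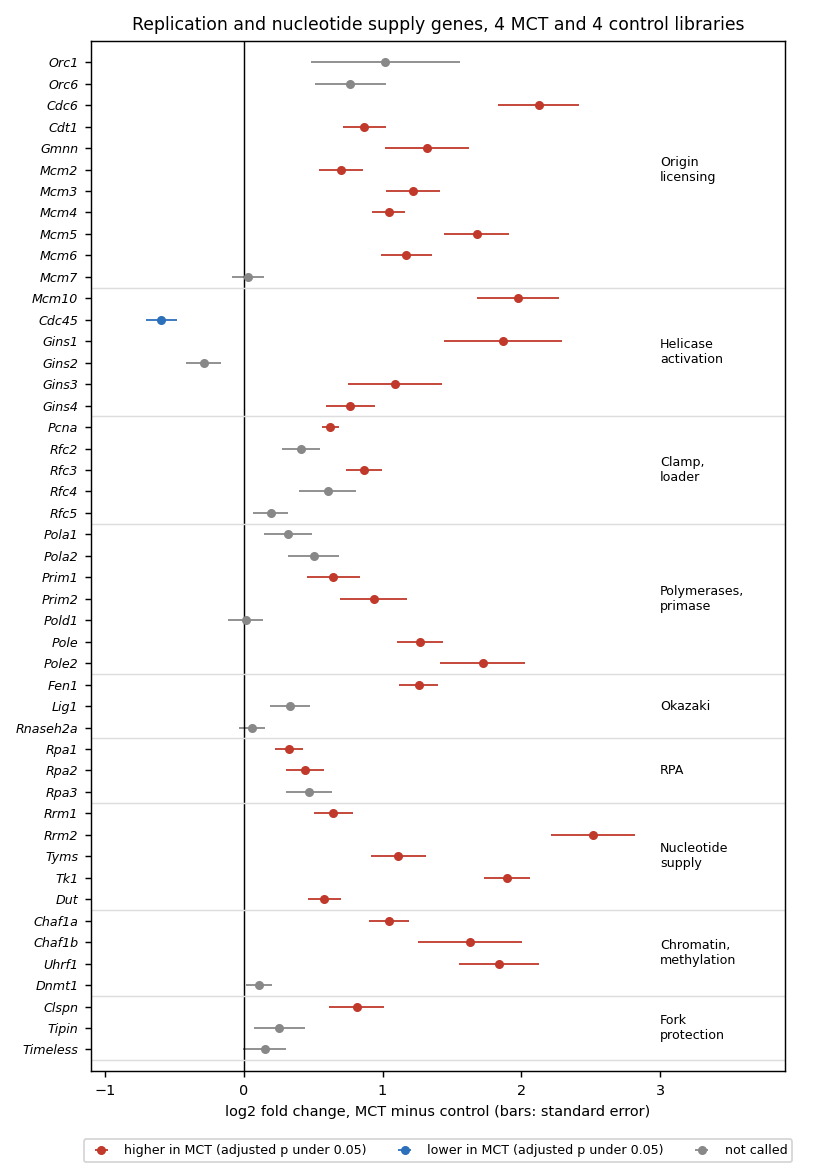
Log2 fold change of each of the 47 genes, MCT minus control (horizontal axis), with its standard error as a bar, grouped by role; red marks genes higher in MCT, blue the gene that was lower and grey those not called. The red points run from 0.33 for Rpa1 to 2.52 for Rrm2, and the blue point is Cdc45 at -0.59.

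Per library, 10.8 to 14.7 M read pairs stood behind the control counts and 11.3 to 18.1 M behind those of MCT. MCT 1 stood apart from the others on the second principal component, at 77.2, and control 1 was at 24.8 against -36.9 to -4.5 for the other 6. Markers of cardiac myocytes were also highest in MCT 1: their summed level was 142 FPKM there, 28.9 to 62.6 in the controls and 26.4 to 52.7 for MCT 2 to 4, and Tnni3, cardiac troponin I, was at 30 FPKM beside 2.69 to 5.44 in the other MCT libraries. Their part in the values of MCT 1 was not tested. Among the 4 MCT libraries MCT 1 was the lowest for 32 of the 47 genes, with a median deviation of -0.22 in log2 CPM from the group mean, and MCT 4 was the highest for 23. Among controls, control 3 was the highest for 20 genes and control 4 the lowest for 19. Without MCT 1 the count of higher genes was 32, and with control 1 and MCT 1 both left out it was 27.

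**Figure D2:**
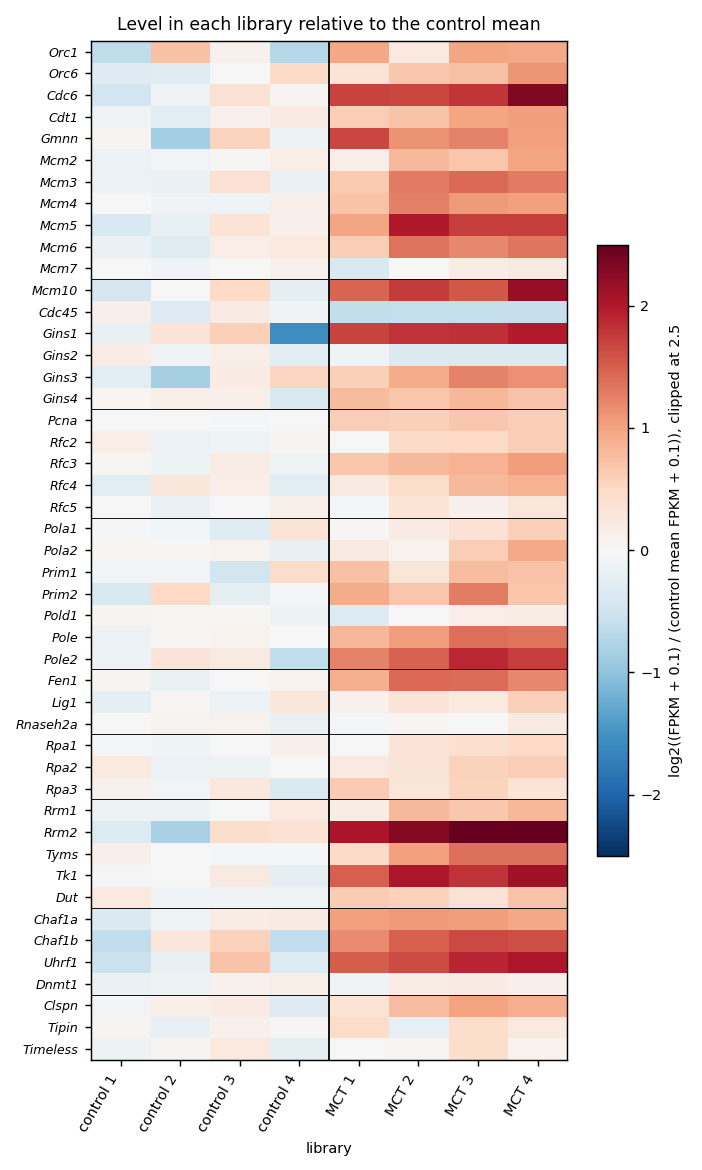
Level of each gene (rows, grouped by role) in each of the 8 libraries (columns), as log2 of FPKM + 0.1 over the control mean + 0.1, with colours clipped at 2.5. The MCT columns are red for most rows, MCT 1 is the palest of the 4 for many genes, and Cdc45 is the blue row across all 4.

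The promoters of 41 of the 47 genes were in the RefSeq table used here (build GRCr8), each spanning 250 bases before to 50 after the start of the gene. They were searched on both strands for an E2F-type element (any of TTTCCCGC, TTTGGCGC, TTTCGCGC and TTTGCCGC), for the CHR element of late cell cycle genes (TTTGAA), for the CCAAT box (CCAAT) and for the GC box (GGGCGG). An E2F-type match can share bases with a GC box, and a palindromic site gives a pair of overlapping matches. An E2F-type element was found in 20 of the 41 promoters (48.8%), beside 2.25% of all 27457 promoters in the table and 3.75% of those of the genes tested. It was in 14 of the 26 promoters of genes called higher (53.8%) and in 6 of the 15 of genes not called or lower (40%). For 10 genes a match lay wholly in the 50 bases after the start, for 8 wholly in the 150 bases before it, and for 3 it crossed the start.

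The CHR element was in 3 of the 41 promoters (7.32%), beside 11.9% of the promoters of genes tested and 18.1% of all promoters. In a list of 25 mitosis genes, used below for comparison, the order was the opposite: 17 of 23 promoters in the table (73.9%) held the CHR element and 1 (4.35%) the E2F-type element. The CCAAT box was in 24 of the 41 (58.5%) and the GC box in 28 (68.3%), beside 37.5% and 60.1% of the promoters of genes tested and 37.7% and 34.9% of all promoters. These matches describe letters in a window and are not evidence of binding.

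**Figure D3:**
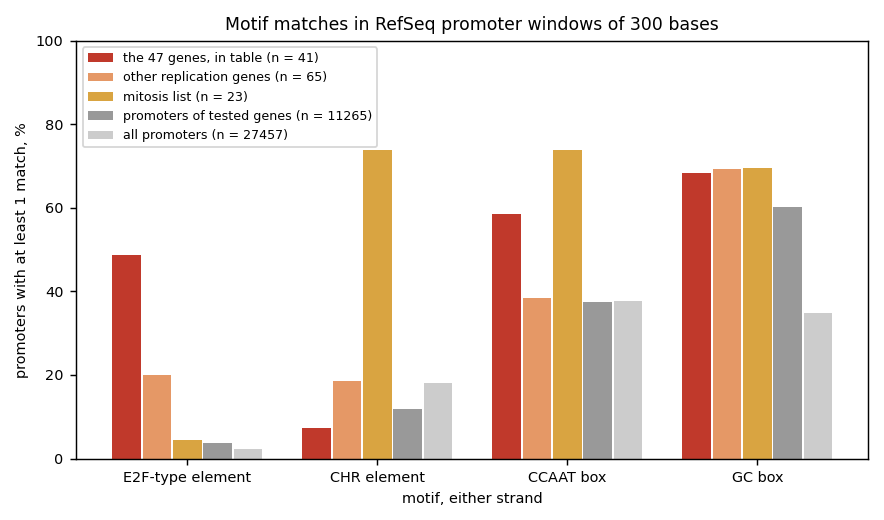
Share of promoter windows of 300 bases that hold at least 1 match to each motif (vertical axis, percent), for the replication genes, the other replication genes, the mitosis genes, the genes tested and all promoters in the table; n is the number of promoters. The E2F-type bar is highest for the 47 replication genes at 48.8% and the CHR bar for the mitosis genes at 73.9%.

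The 150 bases before the start are printed below for the 8 genes with an E2F-type match wholly inside them, since they let the element be compared between genes that rose and genes that did not. Mcm7 and Tipin were not called and the other 6 were higher in MCT. On GRCr8 the windows are chr4:122918095-122918244 (minus strand) for Mcm2, chr19:13488663-13488812 (plus strand) for Mcm5, chr13:42404353-42404502 (minus strand) for Mcm6, chr12:22163179-22163328 (minus strand) for Mcm7, chr3:160184770-160184919 (plus strand) for Gins1, chr19:9434680-9434829 (minus strand) for Gins3, chr9:120776084-120776233 (minus strand) for Tyms and chr8:73675941-73676090 (plus strand) for Tipin. Each is written 5′ to 3′ on the strand of its gene, and capitals mark the E2F-type matches.
Mcm2: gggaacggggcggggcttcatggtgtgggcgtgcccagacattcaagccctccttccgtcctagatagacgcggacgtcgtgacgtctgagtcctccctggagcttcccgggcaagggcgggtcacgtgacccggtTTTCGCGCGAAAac
Mcm5: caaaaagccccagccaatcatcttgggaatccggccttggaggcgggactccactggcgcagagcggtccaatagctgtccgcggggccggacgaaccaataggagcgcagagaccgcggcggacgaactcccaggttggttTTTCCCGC
Mcm6: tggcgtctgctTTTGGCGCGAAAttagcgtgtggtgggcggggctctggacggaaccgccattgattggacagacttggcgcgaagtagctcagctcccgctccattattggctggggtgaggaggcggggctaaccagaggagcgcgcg
Mcm7: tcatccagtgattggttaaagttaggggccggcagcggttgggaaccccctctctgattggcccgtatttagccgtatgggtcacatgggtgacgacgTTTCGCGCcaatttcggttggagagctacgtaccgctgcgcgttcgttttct
Gins1: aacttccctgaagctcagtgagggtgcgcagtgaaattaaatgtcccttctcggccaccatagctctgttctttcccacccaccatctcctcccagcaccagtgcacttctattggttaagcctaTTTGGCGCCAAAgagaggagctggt
Gins3: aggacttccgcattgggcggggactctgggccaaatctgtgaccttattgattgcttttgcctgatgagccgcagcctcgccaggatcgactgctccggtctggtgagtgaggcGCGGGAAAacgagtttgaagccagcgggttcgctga
Tyms: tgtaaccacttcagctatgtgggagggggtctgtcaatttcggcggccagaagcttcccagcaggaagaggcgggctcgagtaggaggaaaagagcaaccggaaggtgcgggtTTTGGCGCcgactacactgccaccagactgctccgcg
Tipin: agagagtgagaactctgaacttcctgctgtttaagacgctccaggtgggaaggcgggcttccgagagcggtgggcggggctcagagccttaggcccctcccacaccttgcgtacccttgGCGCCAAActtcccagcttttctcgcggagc
In Mcm2, Mcm6 and Gins1 the match read as an element on both strands. The first matched base lay 14 bases before the start in Mcm2, 8 in Mcm5, 139 in Mcm6, 52 in Mcm7, 25 in Gins1, 36 in Gins3, 37 in Tyms and 31 in Tipin.

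Most origin licensing genes rose: 8 of 11 were called higher, 6 of them by at least 1, and none was lower. Cdc6, the loader of the helicase (ENSRNOG00000027787, chr10:86819472-86833402 on Rnor_6.0), stood at 0.26, 0.37, 0.55 and 0.43 FPKM in controls 1 to 4 and at 1.53, 1.5, 1.63 and 2.41 in MCT 1 to 4. Every MCT library was above every control and MCT 4 was the highest. Its log2 fold change was 2.12 (SE 0.29, adjusted p = 0.00165), a mean of 1.77 ± 0.432 (SD, n = 4) FPKM against 0.403 ± 0.121. Mcm4, a helicase subunit (chr11:89511191-89524892), was at 4.85, 4.57, 4.48 and 5.46 FPKM in the controls and at 8.01, 11.69, 10.27 and 9.98 in MCT. The groups did not overlap and MCT 1 was the lowest of its group. Its log2 fold change was 1.04 (SE 0.12, adjusted p = 0.000812).

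The other helicase subunits did not all follow Mcm4. Mcm5 had the largest change of the subunits, from 3.15 ± 0.718 to 10.1 ± 2.74 FPKM (SD, n = 4; log2 fold change 1.68, SE 0.23), Mcm3 and Mcm6 rose by 1.22 and 1.17, and Mcm2 by 0.70. Mcm7 (ENSRNOG00000001349, chr12:19306607-19314016) was at 24.06, 22.88, 23.92 and 25.97 FPKM in the controls and 18.65, 24.54, 27.63 and 28.25 in MCT. Both the lowest and the highest of the 8 values were in MCT, and the groups overlapped (log2 fold change 0.03, SE 0.12, adjusted p = 0.889). In the control lungs Mcm7 was well above the other subunits of the same ring, which had control means of 3.15 to 8.46 FPKM, and in MCT the others had means of 9.53 to 13.8 beside 24.8 for Mcm7. The gene model of Mcm7 holds 3 microRNA genes, Mir25, Mir93 and Mir106b, whose own rows were at mean levels of 0.338 to 2.91 FPKM.

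Cdt1, which brings the helicase to origins, and Gmnn, which encodes its inhibitor geminin, rose together. Cdt1 had a log2 fold change of 0.87 (SE 0.16, adjusted p = 0.00518) and Gmnn one of 1.32 (SE 0.30, adjusted p = 0.0156), and neither overlapped between groups. The call for Gmnn was lost with control 1 and MCT 1 both left out. Orc1, the subunit of the origin recognition complex that comes and goes with the cell cycle, was the lowest of the 47 at 0.12, 0.47, 0.27 and 0.11 FPKM in the controls and 0.57, 0.30, 0.58 and 0.56 in MCT. MCT 2 lay inside the range of the controls, and the fold change of 1.02 (SE 0.53) was not called. Between 3.3 and 26.9 read pairs per library stood behind Orc1. Orc6 was also not called (0.77, adjusted p = 0.0624), with values of 1.55 to 2.76 FPKM in the controls and 2.51 to 4.30 in MCT.

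Of 6 helicase activation genes 4 were called higher and 1, Cdc45, lower. The row of Cdc45 may hold reads of another gene, as described below. Mcm10, which helps the loaded helicase to start (chr17:77224112-77246478), was at 0.27, 0.39, 0.60 and 0.32 FPKM in the controls and 1.25, 1.56, 1.36 and 2.15 in MCT. The lowest MCT value was more than the highest control value, and the log2 fold change was 1.98 (SE 0.30, adjusted p = 0.00246). Gins1, Gins3 and Gins4, subunits of the GINS complex, rose by 1.87, 1.09 and 0.77. Gins4 was at 4.48, 4.82, 4.75 and 3.32 FPKM in the controls and 7.57, 7.12, 7.83 and 7.23 in MCT (SE 0.17, adjusted p = 0.0142). The 4 MCT values of Gins4 lay close together, above all controls. Gins3 had an adjusted p of 0.0498 and lost its call under 10 of the alternatives tried.

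Gins2, the fourth GINS subunit, was the other gene of the 47 with a negative fold change. It was at 11.63, 9.56, 11.33 and 8.33 FPKM in the controls and 9.60, 7.94, 7.97 and 7.96 in MCT. MCT 1 lay among the controls and the other 3 just below the lowest control, and the log2 fold change of -0.29 (SE 0.13, adjusted p = 0.148) was not called. Its control mean of 10.2 FPKM was the highest of the 4 subunits, which otherwise ran from 0.79 to 4.34, and its MCT mean of 8.37 was beside 7.44 for Gins4 and 5.99 for Gins1.

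Cdc45, the partner of the helicase, was the only gene of the 47 called lower. It was at 143.94, 105.87, 152.71 and 124.41 FPKM in the controls and 86.32, 87.39, 87.22 and 88.58 in MCT. Every MCT library was below every control, and the MCT libraries were nearly equal (log2 fold change -0.59, SE 0.11, adjusted p = 0.00647). The level itself was out of scale with the rest: the next highest means were those of Pcna, 47.5 in the controls and 73.4 in MCT. The gene model of Cdc45 (ENSRNOG00000050071, chr11:86329012-86358453, plus strand) contains the whole of Cldn5 (chr11:86356294-86357718, minus strand), which encodes the endothelial tight junction protein claudin-5. The row of Cldn5 itself was at 18.84, 61.24, 54.40 and 16.29 FPKM in the controls and 37.62, 0, 21.62 and 42.28 in MCT, with MCT 2 listed at 0 and control 2 the highest. The sources used here do not say whether reads were counted by strand, so reads of Cdc45 and of Cldn5 cannot be told apart. Of 8 endothelial markers tested 3 were lower and 1 higher in MCT, their summed level was 830 to 969 FPKM in the controls and 612 to 766 in MCT, and their part in the value of Cdc45 was not tested. With Cdc45 left out, 30 of 46 genes were higher and 0 lower, by edgeR. Of the other 46 genes 7 overlapped another gene model, and a protein-coding one only for Pola2 (Cdc42ep2, on the same strand) and Fen1 (a row at 0 in every library).

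The sliding clamp Pcna rose with the smallest standard error of the 47. Pcna (ENSRNOG00000021264, chr3:124880698-124884570) was at 48.11, 47.72, 46.74 and 47.54 FPKM in the controls and at 72.68, 71.59, 75.93 and 73.20 in MCT. Within each group the libraries were within a few FPKM of each other, and the gap between groups was many times that (log2 fold change 0.62, SE 0.06, adjusted p = 0.00042). Of the 4 clamp loader subunits only Rfc3 was called. It was at 6.72, 6.10, 7.53 and 6.15 FPKM in the controls and 10.78, 11.72, 12.12 and 13.82 in MCT, with no overlap (0.87, SE 0.13, adjusted p = 0.00247).

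The remaining loader subunits had positive fold changes that missed the threshold. Rfc2 was at 15.47, 12.37, 12.78 and 14.48 FPKM in the controls and 13.62, 19.20, 19.40 and 21.12 in MCT (0.41, SE 0.14, adjusted p = 0.0648). Its MCT 1 value lay among the controls and the other 3 above them. Rfc4 was at 5.73, 8.51, 7.85 and 5.74 FPKM in the controls and 8.10, 9.55, 12.20 and 12.74 in MCT (0.60, SE 0.20, adjusted p = 0.0665). Here too only MCT 1 fell within the control range. Rfc5 had a log2 fold change of 0.19 (SE 0.13), with overlapping groups.

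Among the polymerases the catalytic subunits of the leading-strand and the lagging-strand enzyme differed. Pole, the catalytic subunit of polymerase epsilon (chr12:52403529-52452040), was at 0.61, 0.70, 0.73 and 0.69 FPKM in the controls and 1.29, 1.51, 1.93 and 1.88 in MCT. Its controls lay in a narrow band, below all MCT libraries (1.27, SE 0.16, adjusted p = 0.00131). Its second subunit Pole2 was at 0.63, 0.89, 0.83 and 0.42 FPKM in the controls and 1.78, 2.10, 2.84 and 2.54 in MCT (1.72, SE 0.31, adjusted p = 0.00504). The groups of Pole2 did not overlap either, so both subunits rose from under 1 FPKM. Pold1, the catalytic subunit of polymerase delta (chr1:100537900-100554488), was at 6.19, 6.0, 5.96 and 5.36 FPKM in the controls and 4.64, 5.80, 6.65 and 6.74 in MCT. Its MCT libraries lay on both sides of the controls (0.01, SE 0.13, adjusted p = 0.951). The contrast did not extend to all subunits of the 2 enzymes. Pole4 rose by only 0.22 (SE 0.07) and was called, and Pole3 (0.32) was not called. Pold2 (-0.12), Pold3 (0.14) and Pold4 (0.23) were not called either.

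The primase subunits rose and the polymerase alpha subunits did not pass the test. Prim1 and Prim2, which lay the RNA primer, had log2 fold changes of 0.65 (SE 0.19, adjusted p = 0.042) and 0.94 (SE 0.24, adjusted p = 0.0247). Prim1 overlapped between groups through control 4 at 12.31 and MCT 2 at 11.06 FPKM, and both calls were lost with the replicate number as a block and when any of several libraries was left out. Pola2, the accessory subunit of polymerase alpha, was at 8.57, 8.49, 8.85 and 7.22 FPKM in the controls and 9.68, 8.75, 12.73 and 15.97 in MCT (0.50, SE 0.18, adjusted p = 0.0836). MCT 2 lay within the control range and MCT 4 far above it. The gene model of Pola2 overlaps that of Cdc42ep2 on the same strand. Cdc42ep2 was at 10.36, 7.28, 6.73 and 6.49 FPKM in the controls and 8.43, 3.62, 10.59 and 15.63 in MCT. The part of Cdc42ep2 in the values of Pola2 was not tested. Pola1, the catalytic subunit of polymerase alpha, had a log2 fold change of 0.32 (SE 0.17, adjusted p = 0.227).

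Of the genes that finish Okazaki fragments, the flap endonuclease Fen1 was called. Fen1 (chr1:226251518-226255886) was at 4.09, 3.48, 3.89 and 4.12 FPKM in the controls and 7.30, 10.61, 10.46 and 9.05 in MCT. No MCT library came near the controls (1.26, SE 0.14, adjusted p = 0.000629). Lig1, the ligase that seals the fragments, was at 6.59, 7.96, 6.97 and 9.53 FPKM in the controls and 8.38, 9.78, 9.20 and 11.83 in MCT (0.34, SE 0.14, adjusted p = 0.135). Control 4 lay among the MCT libraries. Rnaseh2a, the catalytic subunit of the enzyme that removes ribonucleotides from DNA, was at 27.89, 29.35, 29.97 and 24.87 FPKM in the controls and 27.62, 28.79, 28.38 and 32.39 in MCT. The groups overlapped throughout (0.06, SE 0.09, adjusted p = 0.701).

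The single-strand DNA binding protein RPA had small positive fold changes in all 3 subunits. Rpa1 was at 9.16, 8.66, 9.30 and 10.25 FPKM in the controls and 9.42, 11.84, 12.59 and 13.16 in MCT (0.33, SE 0.10, adjusted p = 0.0482). Rpa2 was at 7.23, 5.46, 5.53 and 6.01 FPKM in the controls and 7.05, 7.55, 9.07 and 9.29 in MCT (0.44, SE 0.14, adjusted p = 0.0491). In both genes MCT 1 lay within the control range, and the calls were lost under 14 and 13 of the alternatives. Rpa3 was at 18.31, 16.27, 20.32 and 13.17 FPKM in the controls and 26.87, 20.93, 25.21 and 21.56 in MCT, with no overlap, and was not called (0.47, SE 0.17, adjusted p = 0.0764).

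All 5 deoxynucleotide supply genes were higher in MCT. Rrm2, the small subunit of ribonucleotide reductase made in S phase (ENSRNOG00000054286, chr6:43884678-43889515), was at 1.87, 1.32, 3.26 and 3.12 FPKM in the controls and 10.21, 12.15, 16.94 and 15.67 in MCT. All MCT libraries were above 10 FPKM and all controls below 4, and the log2 fold change of 2.52 (SE 0.30, adjusted p = 0.000936) was the largest of the 47. Tk1, the cytosolic thymidine kinase (ENSRNOG00000047314, chr10:106817601-106828884), was at 3.80, 3.95, 4.57 and 3.30 FPKM in the controls and 11.20, 16.06, 13.82 and 17.31 in MCT. It had the smallest adjusted p of the 47 (1.9, SE 0.16, adjusted p = 0.000257), with MCT 1 again the lowest of its group.

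The other 3 supply genes rose less. Tyms, thymidylate synthase, went from 4.08 ± 0.255 to 8.87 ± 2.40 FPKM (SD, n = 4; log2 fold change 1.11, SE 0.20). Dut, which removes dUTP, went from 25.9 ± 3.32 to 38.7 ± 3.80 FPKM (0.58, SE 0.12), with no overlap. Rrm1, the large subunit of ribonucleotide reductase, went from 10.2 ± 1.3 to 15.9 ± 3.04 FPKM (0.65, SE 0.14, adjusted p = 0.013), and MCT 1 at 11.54 lay below control 4 at 12.04.

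Chromatin assembly genes rose, and the maintenance methyltransferase was not called. Chaf1a, the large subunit of the histone chaperone CAF-1 (chr9:11001129-11027506), was at 2.52, 3.0, 3.72 and 3.78 FPKM in the controls and 6.69, 6.90, 6.84 and 6.47 in MCT. The MCT libraries were tightly grouped and well above the controls (1.04, SE 0.14, adjusted p = 0.0017). Chaf1b, its partner, rose by 1.63 (SE 0.37, adjusted p = 0.015). Uhrf1, which guides DNA methylation to newly copied strands (chr9:10738222-10757954), was at 1.03, 1.35, 2.58 and 1.19 FPKM in the controls and 4.59, 4.96, 6.02 and 6.51 in MCT. Control 3 was the highest control, still below all of MCT (1.84, SE 0.29, adjusted p = 0.00295). Dnmt1, the methyltransferase that Uhrf1 recruits, was at 11.31, 11.56, 13.70 and 14.03 FPKM in the controls and 11.94, 14.36, 14.54 and 13.75 in MCT. Its groups overlapped (0.11, SE 0.09, adjusted p = 0.469).

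In the fork protection group only Clspn, the adaptor that carries the checkpoint signal at stalled forks, was called. It was at 1.11, 1.29, 1.37 and 0.91 FPKM in the controls and 1.51, 2.06, 2.46 and 2.27 in MCT (0.82, SE 0.20, adjusted p = 0.0198), a call lost when MCT 2, MCT 3 or MCT 4 was left out. Tipin and Timeless form the complex that holds helicase and polymerase together. Tipin was at 7.72, 6.37, 7.99 and 7.54 FPKM in the controls and 10.23, 6.44, 10.02 and 8.75 in MCT, where MCT 2 was the only library in the control range (0.26, SE 0.18, adjusted p = 0.367). Timeless had a log2 fold change of 0.15 (SE 0.15, adjusted p = 0.542) with 2.44 to 3.39 FPKM in the controls and 2.82 to 3.9 in MCT.

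Fold changes were larger for genes that were low in the control lungs. Of the 11 genes with a control mean under 2 FPKM, 9 were higher, 8 of them by at least 1, with a median log2 fold change of 1.63. Of the 26 genes at 2 to 10 FPKM, 18 were higher with a median of 0.82. Of the 10 genes at 10 FPKM or more, 3 were higher (Pcna, Rrm1 and Dut), 1 lower, and the median was 0.26. Over all genes tested the shares called higher in the same 3 ranges were 9.71%, 9.0% and 13.3%, and the medians 0.20, -0.01 and 0.00. By at least 1, 363 of 4121, 178 of 5343 and 77 of 7251 genes tested were higher. The matching counts for the 47 were 8 of 11, 10 of 26 and 0 of 10. Rises of that size were thus also more frequent among low genes over the whole table. Across the 47 genes, log2 fold change and control level had a Pearson correlation of -0.69 and a Spearman correlation of -0.73. Both measures share the control values, and with the mean over all libraries in place of the control level the Spearman correlation was -0.55.

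**Figure D4:**
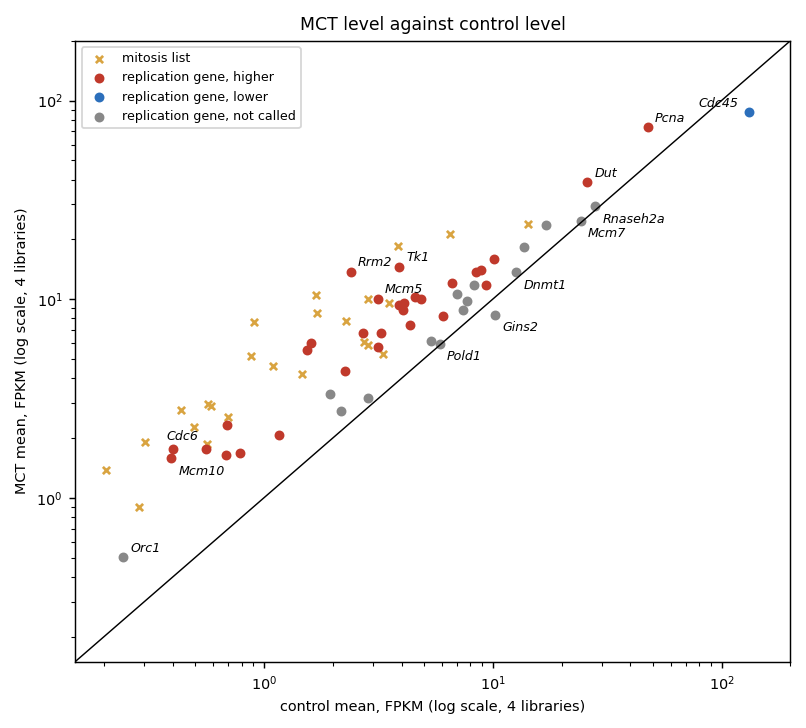
Mean FPKM in MCT (vertical, log scale) against mean FPKM in the controls (horizontal, log scale), 4 libraries each, for the 47 replication genes and the mitosis genes; the line marks equal levels. Points of genes low in the controls, such as Cdc6, Mcm10 and Rrm2, lie far above the line, and those of Mcm7, Rnaseh2a, Dnmt1 and Pold1 lie on or near it.

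Ratios between chosen pairs of genes, not all of the same step, were compared within each library. They were taken as log2 of (FPKM + 0.1) over (FPKM + 0.1), so that library depth cancels. An exact permutation test over all 70 ways to assign the libraries to the groups was run for 10 ratios, two-sided, with adjustment over the 10, and 0.0286 was the smallest p it could give. A ratio at that floor could pass 0.05 after adjustment only when most of the other ratios were there too. Several pairs set a gene called higher beside one not called, so those ratios are not independent of the calls above. The ratio of Rrm2 to Rrm1 was -2.25, -2.73, -1.60 and -1.92 in the controls and -0.18, -0.55, 0.06 and -0.21 in MCT. It was higher in 4 of 4 MCT libraries, by 1.91 on average (exact p = 0.0286, adjusted 0.0408), so that the level of the S phase subunit came near that of the large subunit. Against Rrm2b, the small subunit that also serves resting cells, Rrm2 went from a mean of -0.79 ± 0.562 to 2.18 ± 0.257 (SD, n = 4; exact p = 0.0286, adjusted 0.0408). Rrm2b itself was at 3.93, 3.85, 4.25 and 3.85 FPKM in the controls and 2.67, 2.69, 2.87 and 3.39 in MCT, every MCT library below every control, and was not called (-0.45, SE 0.18, adjusted p = 0.102).

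The cytosolic thymidine kinase Tk1 crossed its mitochondrial counterpart Tk2. The ratio of Tk1 to Tk2 was -1.41, -0.82, -0.82 and -1.53 in the controls and 0.17, 0.85, 1.07 and 0.96 in MCT, negative in every control and positive in every MCT library (difference 1.91, exact p = 0.0286, adjusted 0.0408). Tk2 was at 8.78 ± 1.47 FPKM in the controls and 8.54 ± 1.43 in MCT (SD, n = 4; log2 fold change -0.04, SE 0.16). The ratio of Uhrf1 to Dnmt1 rose by 1.74, from -3.04 ± 0.489 to -1.3 ± 0.188, and that of Clspn to Timeless by 0.62, from -1.22 ± 0.084 to -0.60 ± 0.195 (both exact p = 0.0286, adjusted 0.0408, n = 4). Both ratios were higher in 4 of 4 MCT libraries than in any control.

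The ratio of Pold1 to Pole was 3.15, 2.93, 2.87 and 2.79 in the controls and 1.77, 1.87, 1.73 and 1.79 in MCT. It was lower in 4 of 4 MCT libraries, by 1.14 on the log2 scale (difference -1.14, exact p = 0.0286, adjusted 0.0408), and its spread within MCT was small (SD 0.059). The ratio of Mcm10 to Mcm2 rose by 1.11 (exact p = 0.0286, adjusted 0.0408), and lost its call when any 1 MCT library was left out (adjusted p 0.0635 to 0.0816). That of Clspn to Timeless lost it without control 4 (adjusted p = 0.0816). The ratio of Orc1 to Orc2 had a difference of 1.07 (exact p = 0.0571, adjusted 0.0714), with control 2 at -4.05 above MCT 2 at -4.40, and passed without control 2. Orc2, a subunit present through the whole cell cycle, was at 10.5 ± 0.98 FPKM in the controls and 9.35 ± 0.99 in MCT (SD, n = 4; log2 fold change -0.17, SE 0.10).

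Cdt1 over Gmnn, the licensing factor over its inhibitor, gave 0.06, 0.79, -0.23 and 0.54 in the controls and -0.84, -0.20, -0.03 and 0.24 in MCT. The difference of -0.50 was close to the SDs of 0.461 in the controls and 0.455 in MCT, and was not called (exact p = 0.2, adjusted 0.2). Mcm5 over Mki67, the proliferation marker, gave 1.48 ± 0.219 in the controls and 1.07 ± 0.40 in MCT (difference -0.42, exact p = 0.0857, adjusted 0.0952, n = 4). For these a difference was not detectable with 4 libraries per group.

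**Figure D5:**
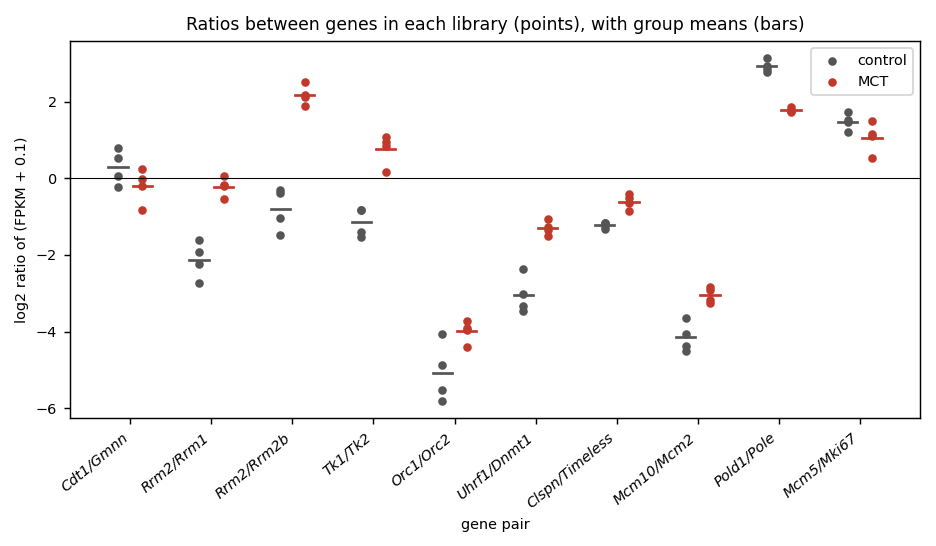
Log2 ratio of FPKM + 0.1 between the genes of each pair (horizontal axis) in each library (points; controls grey, MCT red) with group means as bars. The groups are apart for 7 pairs, Tk1/Tk2 and Rrm2/Rrm2b change sign on average, and Cdt1/Gmnn, Orc1/Orc2 and Mcm5/Mki67 overlap.

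Beyond the 47, a list of 77 other replication and nucleotide genes was counted, of which 75 were tested. In MCT 27 of the 75 (36.0%) were higher and 3 lower, with a median log2 fold change of 0.23, beside 11.0% higher, 9.45% lower and a median of 0.03 over all genes tested. Of 19 genes of origin recognition and firing, 7 were higher and 1, Mcm9, lower. The largest rises there were in Ccne1, cyclin E1, at 0.19, 0.33, 0.48 and 0.28 FPKM in the controls and 1.47, 2.01, 2.48 and 2.86 in MCT (2.76, SE 0.36, adjusted p = 0.00134), and in Ccna2, cyclin A2, from 1.24 ± 0.661 to 6.19 ± 0.869 FPKM (SD, n = 4; log2 fold change 2.32, SE 0.32). Both cyclins drive entry into and passage through S phase, and both were higher in every MCT library. Cdc7 and Dbf4, the kinase and its regulator that fire the helicase, rose by 1.58 and 1.05.

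Of 12 further polymerase and clamp loader subunits 3 were higher and none lower. Dscc1 and Chtf18, parts of the alternative clamp loader used in sister chromatid cohesion, rose by 1.32 (SE 0.29) and 0.72 (SE 0.15). Of 13 processing and chromatin genes tested 6 were higher, and the largest rises among those above 1 FPKM in MCT were in Top2a, topoisomerase II alpha, from 1.81 ± 0.625 to 10.3 ± 1.40 FPKM (SD, n = 4; log2 fold change 2.51, SE 0.22, adjusted p = 0.00028), and Asf1b, a histone chaperone, by 2.08 (SE 0.33). Hells, a chromatin remodeler, rose by 2.17 (SE 0.51, adjusted p = 0.0174) from 0.128 to 0.598 FPKM. Of 31 nucleotide metabolism genes tested 11 were higher and 2 lower. Dctpp1, which clears dCTP and its analogues, rose by 1.53 (SE 0.22, adjusted p = 0.00197).

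The 2 lower genes of nucleotide metabolism act on nucleosides rather than on their synthesis. Slc29a1, the nucleoside transporter ENT1, was at 173.14, 135.89, 144.46 and 142.42 FPKM in the controls and 59.33, 49.91, 58.33 and 72.37 in MCT. The highest MCT library was below all controls (-1.31, SE 0.12, adjusted p = 0.000378). Upp1, uridine phosphorylase, had a mean of 47 ± 4.65 FPKM in the controls and 22.4 ± 3.86 in MCT (SD, n = 4; log2 fold change -1.07, SE 0.13, adjusted p = 0.000919).

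Of the 24 mitosis genes tested 23 were higher, 22 of them by at least 1, with a median log2 fold change of 1.97 beside 0.77 for the 47 replication genes. Mki67 was at 0.79, 0.76, 1.68 and 1.14 FPKM in the controls and 4.34, 4.51, 4.91 and 4.72 in MCT, with no overlap (2.08, SE 0.24, adjusted p = 0.000767). The difference between the lists was not tested.

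Markers of some other cell types also moved with treatment. Of 8 mast cell markers 7 were higher and 1 lower, and their summed level was 66.6 to 70.2 FPKM in the controls and 246 to 1143 in MCT. Of 5 fibroblast markers tested 3 were higher (Col1a1, Col3a1 and Lum), and Pdgfra (0.08) and Dcn (-0.07) were not called. The fibroblast sum (340 to 467 FPKM in the controls against 776 to 1325 in MCT) was mostly Col3a1. Without Col3a1 it was 104 to 117 FPKM in the controls and 203 to 264 in MCT. Among 9 macrophage markers tested 4 were higher. The macrophage sum (12410 to 17070 FPKM against 9823 to 18480) was nearly all Lyz2, which was not called, and without Lyz2 it was 207 to 311 FPKM in the controls and 402 to 715 in MCT. Of 7 T cell markers 1 was higher and 1 lower, and of 7 B and plasma cell markers 1 was higher, shares near the 11.0% and 9.45% of all genes. The B and plasma cell sum (159 to 253 FPKM in the controls against 252 to 400 in MCT) was mostly Jchain, the marker called. Without Jchain it was 26.0 to 86.9 FPKM in the controls and 30.4 to 59.7 in MCT. Of 6 alveolar type 1 markers 1 was lower, and their summed level was 3221 to 3567 FPKM in the controls and 2574 to 3112 in MCT. No marker was called by edgeR among 6 smooth muscle, 6 ciliated and 5 cardiac markers tested, with 0 at an unadjusted p under 0.05 and 0 called by DESeq2. Of 6 neutrophil and 6 erythroid precursor markers tested 0 were called by edgeR, with 2 of each at an unadjusted p under 0.05 and 1 and 0 called by DESeq2. Of 7 alveolar type 2 markers 1 was higher and 3 were lower (28310 to 36630 FPKM in the controls against 20590 to 26610 in MCT). Most of that sum was Sftpc, and without it the groups overlapped, at 8000 to 9840 FPKM in the controls and 6920 to 9550 in MCT. Of 6 markers listed for thymus and lymph node germinal centres 2 were tested, and 1 was lower and 0 higher. The lower one, Bcl6, had means of 15.2 FPKM in the controls and 8.7 in MCT (-0.80, SE 0.18, adjusted p = 0.0151). S1pr2 was not called (0.22, SE 0.12). Rag1 and Rag2 of that list, which define developing lymphocytes, were under 0.2 FPKM in every library. Which cells carried the replication transcripts, and the part of these shifts in cell makeup, was not tested.

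On Rnor_6.0 the 47 genes were spread over 16 chromosomes, with 6 on chromosome 19 and 5 each on chromosomes 1, 9 and 12. Prim1 and Timeless lay on chromosome 7 with 192122 bases between them, and the first was called higher while the second was not.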

How the data were processed

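Lung RNA of 8 libraries was sequenced after capture on oligo(dT) beads, per the labels' protocols. Per the submitters' processing notes, the authors used Rnor_6.0 with cutadapt 1.9, HISAT2 2.0.4, StringTie 1.3.4d and edgeR, with no settings, roles or order listed. For each gene and library the deposited table gives an FPKM value (fragments scaled by transcript length and library depth) and an estimated count, per the file headers. Low estimated counts, as deposited, were spaced by about 3.67 units, so the totals of 39.8 to 66.6 M units stood for 10.8 to 18.1 M read pairs; FPKM values were used as deposited by the authors for levels and ratios.

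Estimated counts were rounded, filtered with filterByExpr (minimum count 10), scaled by TMM and tested with edgeR's quasi-likelihood test (robust), two-sided, with Benjamini-Hochberg adjustment over all 16715 genes and a threshold of 0.05. The procedure was checked on simulated data. The tools were edgeR 4.0.16 and, for alternatives, DESeq2 1.42.0 and limma 3.58.1, run in R 4.3.3. Ratios used a pseudocount of 0.1 FPKM. Where a symbol had several rows, the row with the highest mean FPKM was taken.

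The 47 genes and all lists were chosen with earlier results of these data known, so their counts are not independent evidence. Values in every library are given for the 2 called genes with the smallest p in each role. They are also given for up to 12 genes not called or lower, by highest mean FPKM. Genes of the ratios are given by library, or only by means, ranges or fold changes. Other replication genes are the 2 called with the largest change per list and a mean of at least 1 FPKM. Mcm9, Upp1, Cdc7, Dbf4 and Hells were added after their values were seen. Of the list of other replication genes, Dna2 had no row in the table and Cda was not tested. Alternatives were other filters, scalings, tests and pseudocounts, counts divided by their spacing, the replicate number as a block, and libraries left out. No pair of libraries of a group was a duplicate. Whether replicate numbers pair the libraries is not given. Deviations of same-numbered libraries correlated at 0.11, 0.02, -0.02 and -0.09 for numbers 1 to 4. These values cannot exclude pairing, and 0.11, for control 1 and MCT 1, was the highest of all pairs of a control and an MCT library. Promoter sequences are RefSeq's (GRCr8); Orc1, Cdc6, Mcm4, Gins4, Rpa3 and Rrm2 were not in that table.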

Additional observations from a re-analysis of the deposited data

Results flagged for a closer look

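Of 114 sets of 4 libraries checked (each gene and each ratio in each group, on the log2 scale), 6 had a library far from the other 3, where chance gives about 5.7. The number is the gap to the nearest library divided by the whole range, and a set was picked where it passed Dixon's 95% critical value for 4 values. Orc1 in MCT was flagged for MCT 2, the low library, at 0.944. Mcm3 was flagged in both groups, for control 3, which was high at 0.959, and for MCT 1, which was low at 0.845. Gins2 in MCT was flagged for MCT 1, the high library, at 0.98. Prim1 in MCT was flagged for MCT 2, the low library, at 0.874. Dut in the controls was flagged for control 1, the high library, at 0.914. Of these genes Mcm3, Dut and Prim1 were called higher. The call of Mcm3 and that of Dut held with each library left out, and that of Prim1 was lost without MCT 1, 3 or 4 or control 1, 2 or 3.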

How the results depend on the processing

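With a minimum log2 change of 1 required too, the counts were 618 higher and 298 lower genes in all, 18 higher and 0 lower of the 47, and 13 higher of the other replication genes. With Cdc45 left out, an alternative chosen after seeing the data, 30 were higher and 0 lower of the remaining 46. Leaving out 1 library at a time gave 1191 (without MCT 2) to 1946 (without MCT 1) higher and 975 (without MCT 2) to 1730 (without MCT 1) lower genes in all, and 24 (without MCT 3) to 32 (without MCT 1) higher among the 47. With the replicate block, 27 of the 47 were higher and 1 lower, 22 and 2 of the other replication genes, and 22 of the mitosis genes. DESeq2 called 34 of the 47 higher.

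For single genes of the 47, 939 alternative values were computed. Of these 870 kept the side of the threshold, 55 lost the call, 14 gained it and 0 called values changed sign. Among the 870, uncalled values close to 0 did change sign: Pold1 and Rnaseh2a without control 4, and Mcm7 and Pold1 without MCT 3 or without MCT 4. The lost calls were those of Rpa1 (14), Rpa2 (13), Gins3 (10), Prim1 (8), Prim2 (6), Clspn (3) and Gmnn (1), and the other 23 higher genes kept theirs in every alternative that gave them a value. Orc1 had no value with the filter of FPKM of at least 1 in 4 libraries. Of the 10 ratios, 7 were called with each other pseudocount and with log2 CPM, and 6 to 8 with 1 library left out; over 4 same-numbered pairs the exact test cannot go below 0.125. The lowest of the 47, Orc1, rests on 3.3 to 26.9 read pairs per library.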
